A study of Homo sapiens and Mus musculus with 24 samples.

Results

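The genes examined here are 31 members of the p53 pathway, nearly all of them known transcriptional targets of p53, among 58434 gene identifiers listed for MCF10A. Members were taken by gene symbol from a list that also covers regulators of p53, and a member's level is the sum over all its transcripts. MCF10A cells are non-tumorigenic epithelial cells from the human breast. The knock-in (KI) line carries PIK3CA H1047R on 1 allele, a change that activates PI3K alpha, and the parental line carries the wild-type gene. The isogenic lines came from a commercial supplier and were kept for 4 h with 1 uM BYL719 (alpelisib, an inhibitor of PI3K alpha) or with its solvent DMSO. The 4 groups are therefore KI BYL719, KI DMSO, parental BYL719 and parental DMSO, with 3 libraries each. The sources used here do not say whether the libraries of a group are separate cultures or clones, so p values measure the spread between these libraries only. If the KI line is 1 clone, clone and genotype cannot be told apart. The series holds 24 libraries, and its 12 libraries of mouse fibroblasts were not used here.

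The transcription factor p53 is held at a low level in unstressed cells by MDM2, which marks it for degradation and is itself a p53 target, so that the pathway limits its own output. DNA damage, oncogene activity and metabolic stress release p53 from this control. Its targets then stop the cell cycle, repair DNA, adjust metabolism or start apoptosis. PI3K and AKT signalling touches the same loop, since AKT phosphorylates MDM2. MCF10A cells keep wild-type p53 and lack the CDKN2A locus, whose product ARF would otherwise restrain MDM2.

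Each library held 120177015 to 162755457 estimated read pairs. The edgeR quasi-likelihood test covered 21079 genes. All 31 members were tested, and each was at or above 2 CPM (counts scaled to the library total) in every library. The least abundant member of a library had 1005 to 2021 counts, and the members together made up 0.239% to 0.254% of a library. Of the basal mammary markers all 7 were above 1 CPM in every library, with summed levels of 8394 to 8596 CPM in KI BYL719, 8782 to 9009 CPM in KI DMSO, 9140 to 9630 CPM in parental BYL719 and 9613 to 9896 CPM in parental DMSO. The sums hide single markers that differed between the lines. The basal keratin KRT14 was at 195.9 to 218.1 CPM in KI BYL719, 243.8 to 295.8 CPM in KI DMSO, 49.5 to 51.4 CPM in parental BYL719 and 51.4 to 52.4 CPM in parental DMSO. Other basal markers were lower in KI DMSO than in parental DMSO. ITGB4 was at 557 to 697 against 853 to 947 CPM, and LAMB3 at 885 to 1006 against 1172 to 1313 CPM. KRT17 was at 881 to 1135 against 1225 to 1272 CPM, and KRT5 at 3536 to 3843 against 3936 to 3997 CPM. TP63, given below, was also lower, and KRT6A overlapped between these groups. The epithelial cadherin CDH1 was at 139.4 to 142.5 CPM in KI BYL719, 92.0 to 120.2 CPM in KI DMSO, 259.5 to 266.2 CPM in parental BYL719 and 234.7 to 250.5 CPM in parental DMSO. EPCAM, the other epithelial marker, lay between 69.9 and 85.9 CPM in the KI libraries and between 89.8 and 96.1 CPM in the parental libraries. Of 4 luminal markers 3 were above 1 CPM in every library, with summed levels of 682.5 to 692.5 CPM in KI BYL719, 650.1 to 807.2 CPM in KI DMSO, 609.7 to 658.3 CPM in parental BYL719 and 649.2 to 655.5 CPM in parental DMSO. The part of these marker differences in the results on the members was not tested. CD3E and PTPRC, which define blood cells, and CDH5, which defines endothelium, lay between 0 and 0.0762 CPM. Of the 4 blood and 3 fibroblast markers, CD68 (14.4 to 20.9 CPM) and COL1A1 (17.2 to 26.1 CPM) were above 1 CPM in every library. CDKN2A was at or below 0.0305 CPM in all 12 libraries. PIK3CA, the gene that carries the knock-in, was at 69.3 to 72.2 CPM in KI BYL719, 33.4 to 44.3 CPM in KI DMSO, 66.7 to 72.1 CPM in parental BYL719 and 55.9 to 59.2 CPM in parental DMSO. Which allele the reads carried was not analysed here.

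One library stood apart. KI DMSO replicate 2 lay at 54.12 on the second principal component (14.38% of the variance), against 14.12 and 17.09 for KI DMSO replicates 1 and 3. Its levels followed transcript length. Relative to the other KI DMSO libraries, genes with a mean effective length under 1000 nt had a median log2 deviation of 0.19 there and genes over 4000 nt one of -0.32. Across the 31 members the rank correlation of deviation and length in that library was -0.79, a description over genes that share the library. BAX deviated by 0.42, GADD45A by 0.37 and FDXR by 0.48, while POLH deviated by -0.50, SUSD6 by -0.33 and RRM2B by -0.32. The counts of members called are also given without this library, as are single member values, here or with the alternatives at the end, where leaving it out changed the call or moved a called value by over 1.5 times.

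**Figure D1:**
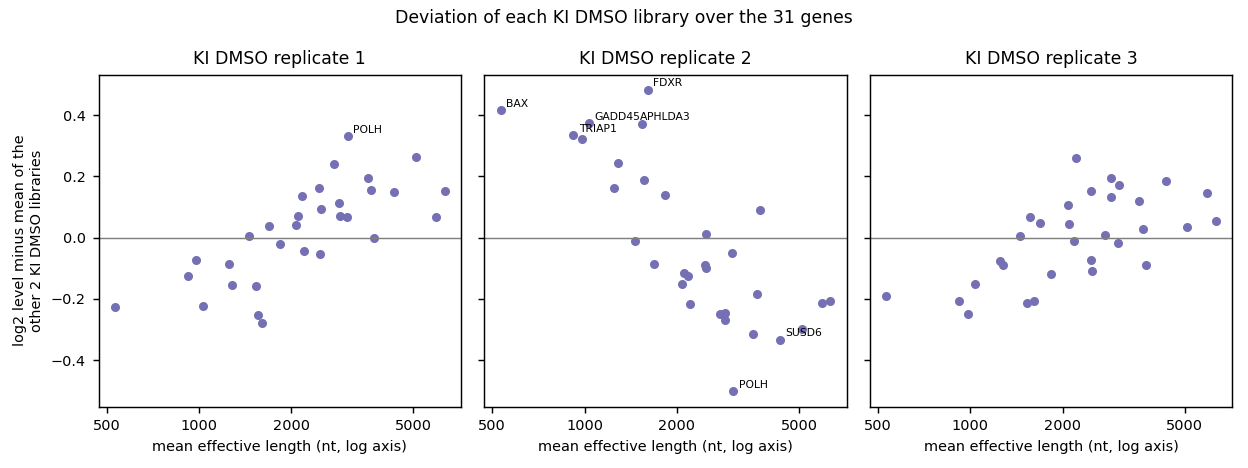
Deviation of each KI DMSO library from the mean of the other KI DMSO libraries (log2, y axis) against mean effective length (nt, log axis), 1 point per member gene. In replicate 2 the highest point is FDXR at 0.48 (1608 nt) and the lowest POLH at -0.50 (3055 nt). BAX, the shortest at 533 nt, lies at 0.42, and ZMAT3, the longest at 6325 nt, at -0.21.

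RefSeq promoter windows, which run from 250 bases before to 50 bases after a transcript start (GRCh38.p14), were at hand for 23 of the 31 members, with a mean of 1.48 windows for each, against 1.29 for all 27305 genes. They were searched on both strands for the p53 half-site consensus, the element of which a pair forms a full p53 binding site. At least 1 window held a match in 5 of these members (21.74%), against 8.064% of all those genes. The windows with matches are shown because they hold the p53-like letters found in PLK2, FAS, DDB2, AEN and FDXR, whose levels follow. Capitals mark the matching letters, and each sequence reads 5′ to 3′ on the strand of its gene.
PLK2, chr5:58460199-58460228, minus strand: tggcgggacaAGACTTGCTTcccggccacg
FAS, chr10:88991299-88991328, plus strand: cggaactcctGGACAAGCCCtgacaagcca
DDB2, chr11:47214975-47215004, plus strand: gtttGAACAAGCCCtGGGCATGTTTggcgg
AEN, chr15:88621296-88621325, plus strand: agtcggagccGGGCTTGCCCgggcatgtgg
FDXR, chr17:74872986-74873015, minus strand: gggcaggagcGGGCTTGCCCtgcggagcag
The matches in FAS, DDB2 and AEN belong to windows downstream of the gene's first annotated base. Of the members DDB2 alone had a window with 2 matches, as did 0.385% of all genes. A match describes letters only, and binding was not measured. Many known p53 sites lie outside such a window.

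Without inhibitor, most of the 31 members, which were chosen with earlier results of these data known, were higher in the KI line. In DMSO, 18 of the 31 members were higher in KI than in parental cells (58.1%), against a background of 17.0% of all genes tested, and 3 were lower (9.68%), against 17.2%. In either direction the background was 34.2%. Every member was at or above 2 CPM in every library, while the background covers all genes that passed the low-count filter. Here and below the shares are therefore not matched for expression level, and the part of expression level in them was not tested. A gene was called at a Benjamini-Hochberg adjusted p under 0.05 over all 21079 genes. The polo-like kinase PLK2 was 1.95-fold higher, the cytokine GDF15 1.90-fold, the stress sensor GADD45A 1.83-fold and the nuclease AEN 1.70-fold. The 3 lower genes were the adhesion protein gene PERP, the growth inhibitor BTG2 and the phosphatase PPM1D. In a culture measured in bulk, a change in every cell and a change in the share of cells that express a gene cannot be told apart. The members' median log2 change was 0.29, and that of all genes was 0.00489. Of 16 further known p53 targets, given below, a smaller share was higher (5 genes, 31.2%). Without KI DMSO replicate 2, 20 members were higher (background 19.6%) and 3 lower (background 19.3%).

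Under BYL719 the lines still differed. In the BYL719 libraries, 17 members were higher in KI than in parental cells (54.8%, background 11.4%) and 3 were lower (9.68%, background 10.9%, and 22.3% in either direction), with a median log2 change of 0.24 against 0.0131 for all genes. The DMSO and BYL719 comparisons of the lines use different libraries. The same 15 members were higher in KI in each, which is 83.3% of those higher in DMSO and 88.2% of those higher under BYL719. Of all genes, 1651 were higher in each, which is 46.1% of those higher in DMSO and 68.5% of those higher under BYL719. BTG2 and PERP were lower in each, 66.7% of the members lower in either comparison, against shares of 50.6% and 80% for all genes. Without KI DMSO replicate 2, which shares only the estimate of spread with this comparison, the counts were 18 higher (background 17.4%) and 3 lower (background 17.2%).

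**Figure D2:**
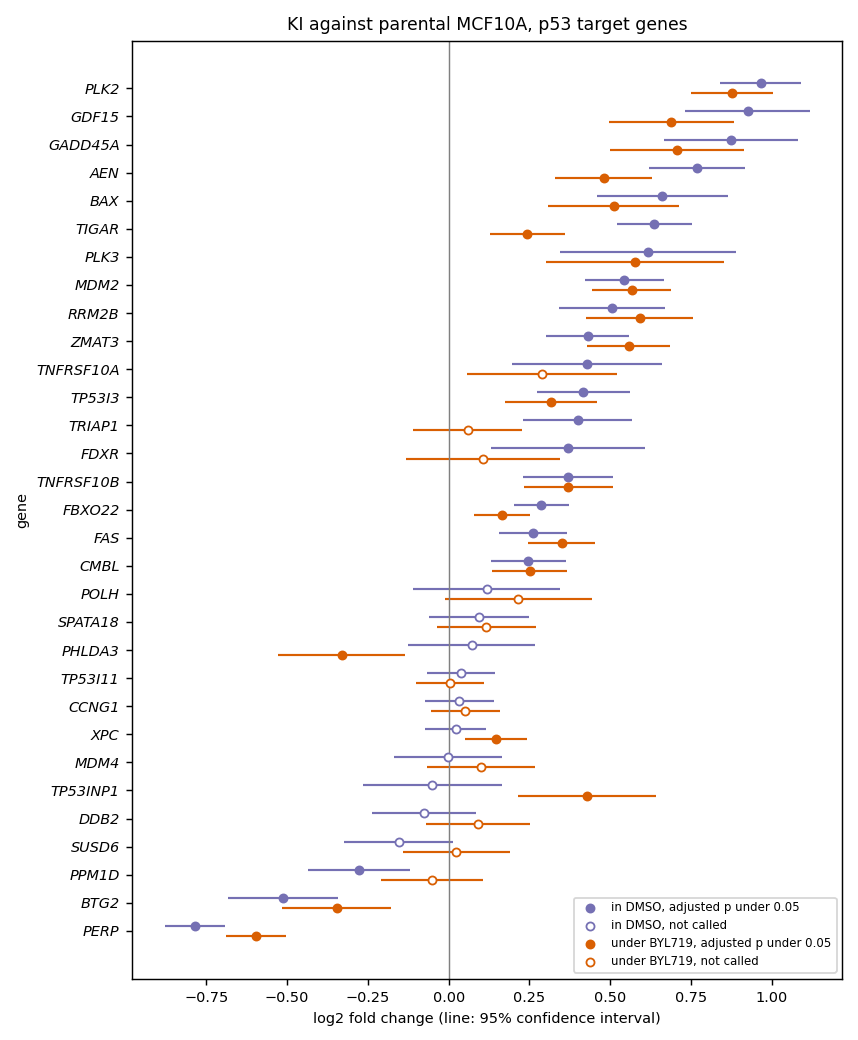
Log2 fold change of KI over parental cells for each of the 31 members (y axis), in DMSO and under BYL719, with 95% confidence intervals over 3 libraries per group; filled points passed an adjusted p of 0.05. The points for PLK2 lie at 0.97 and 0.88 and those for PERP at -0.79 and -0.60.

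BYL719 moved the members in the KI line in either direction. In KI cells 7 members were higher with BYL719 than with DMSO (22.6%, background 15.1%) and 9 were lower (29%, background 13.2%, and 28.3% in either direction), with a median log2 change of -0.00899 against 0.0195 for all genes. TP53INP1 rose most and AEN fell most. In parental cells PLK2 and AEN fell (6.45%, background 0.588%, and 1.43% in either direction) and 0 of 31 members rose (background 0.844%). That count of 0 is by edgeR, where 8 members had an unadjusted p under 0.05 in this comparison in either direction. The share of all genes under that unadjusted p is not given, so these 8 cannot be set against a background. DESeq2 called 5 members, 3 of them higher (PPM1D, PERP and TP53INP1), and 891 genes, against 302 genes by edgeR. The test of the difference between the lines in their BYL719 effect called 1 member lower, TIGAR (3.23%, background 0.797%). It called 0 members higher (background 2.08%, and 2.87% in either direction). There 8 members had an unadjusted p under 0.05, again with no share of all genes beside it. DESeq2 called 4 members and 1429 genes, against 606 genes by edgeR. Its 4 members were TIGAR (-0.41, adjusted p = 3.89e-05), FBXO22 (-0.14, adjusted p = 0.0444), TP53INP1 (0.46, adjusted p = 0.021) and PHLDA3 (-0.42, adjusted p = 0.0434). So by edgeR with all 12 libraries, no change called only in KI cells is shown to differ between the lines, TIGAR apart. Without KI DMSO replicate 2, the counts higher and lower were 7 and 11 in KI cells (backgrounds 15.5% and 17.0%), 4 and 3 in parental cells (backgrounds 4.21% and 4.96%) and 1 and 3 for the difference between the lines (backgrounds 4.7% and 4.01%).

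**Figure D3:**
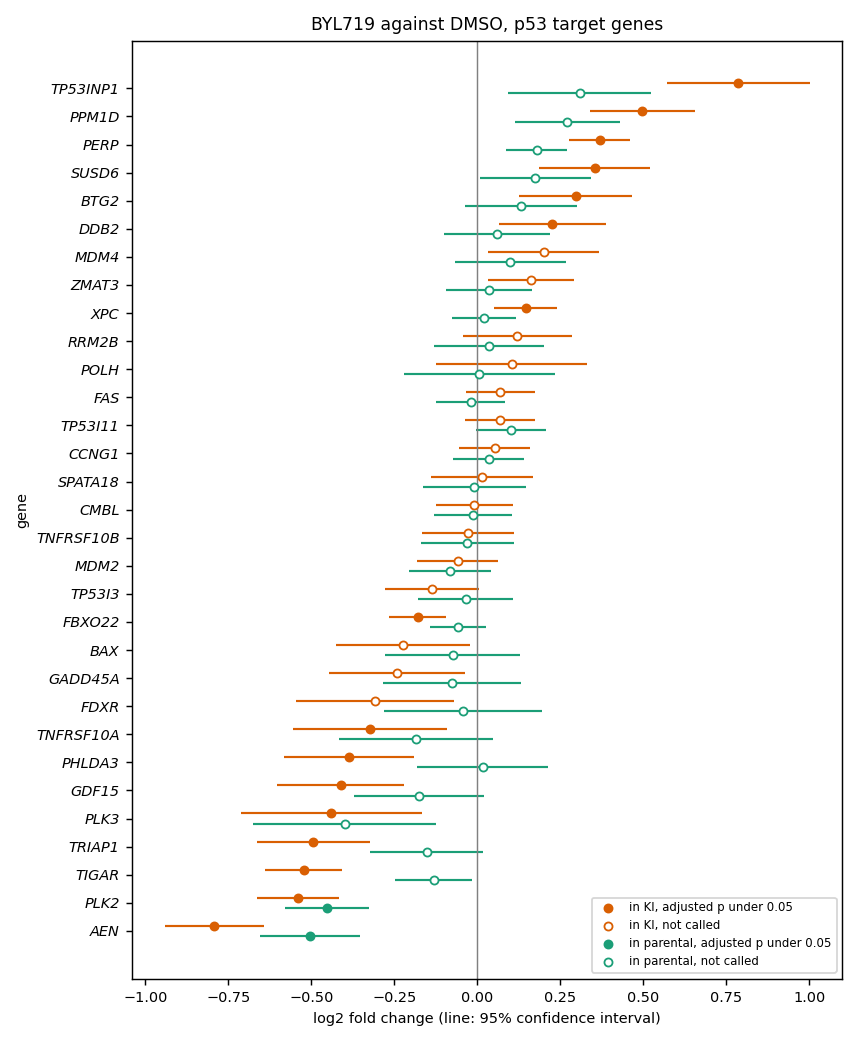
Log2 fold change of BYL719 over DMSO for each member (y axis) in KI and in parental cells, with 95% confidence intervals; filled points passed an adjusted p of 0.05. In KI cells the values run from 0.79 for TP53INP1 to -0.79 for AEN, and in parental cells the 2 filled points are PLK2 at -0.45 and AEN at -0.50.

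The comparison of the lines in DMSO and the effect of BYL719 in KI cells share the KI DMSO libraries, so a value that is high there pulls them in opposite directions. For that reason no count of members that differed in each is given, and each gene's values stand side by side below.

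**Figure D4:**
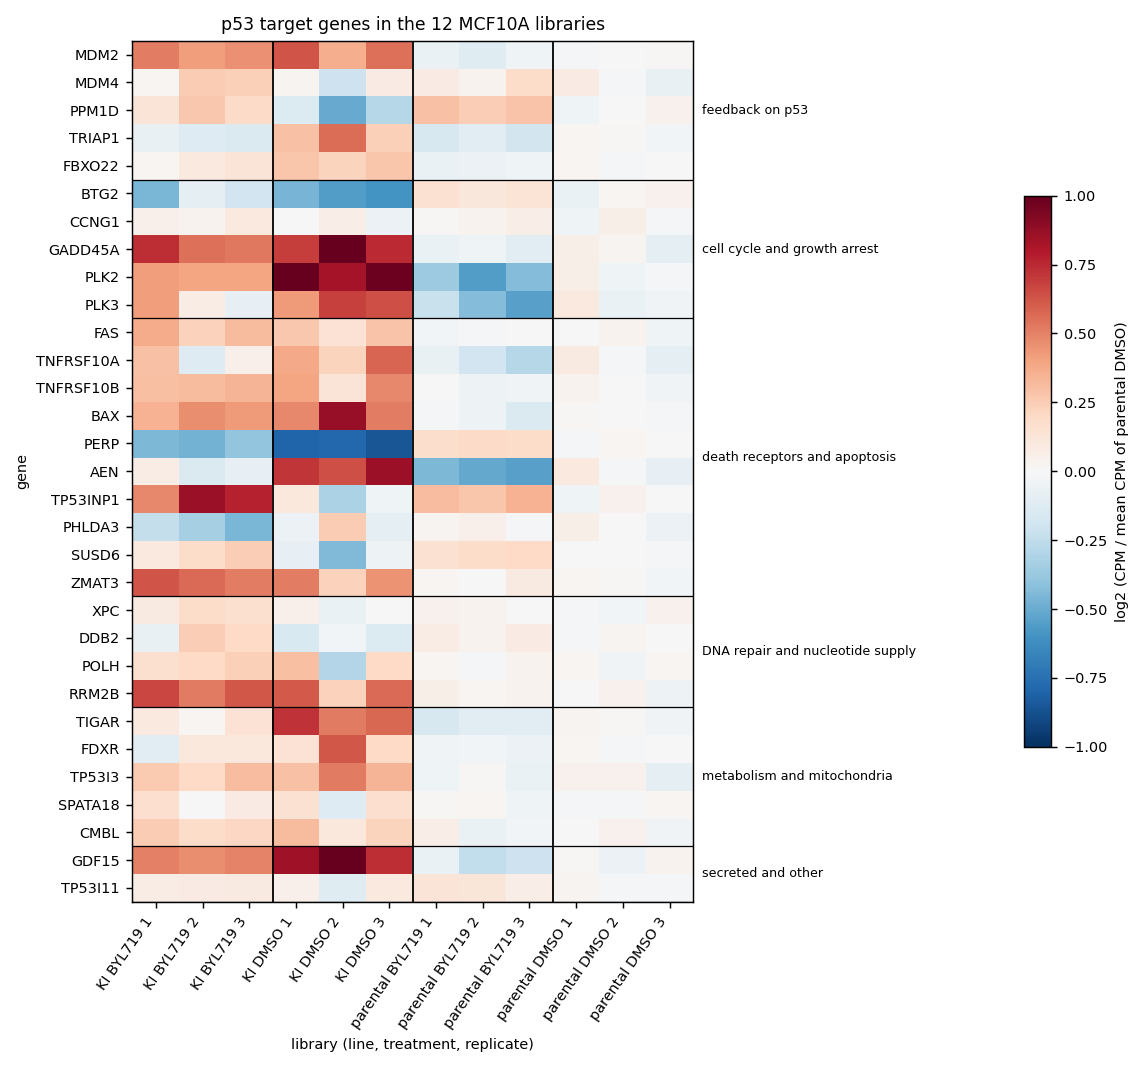
Level of each member in each of the 12 libraries as log2 of its CPM over the mean CPM of the parental DMSO libraries, with members grouped by role and the colour scale ending at -1 and 1. The KI columns are red for PLK2, GADD45A, GDF15 and RRM2B and blue for PERP and BTG2 under either treatment.

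Among the genes that feed back on p53, the ubiquitin ligase MDM2 differed between the lines. It had no called change with the inhibitor in the fit of all 12 libraries. MDM2 (chromosome 12, 68808172 to 68850686, GRCh38.p14) was at 184.0, 172.2 and 177.5 CPM in KI BYL719, 199.8, 166.0 and 189.0 CPM in KI DMSO, 123.3, 118.5 and 125.4 CPM in parental BYL719 and 128.4, 128.9 and 130.3 CPM in parental DMSO. Every KI library lay above every parental library. The log2 change of KI over parental was 0.54 (SE 0.0564, adjusted p = 1.24e-05) in DMSO and 0.57 (SE 0.0565, adjusted p = 1.04e-05) under BYL719. With BYL719 it was -0.06 in KI cells (95% interval -0.182 to 0.063, adjusted p = 0.467) and -0.08 in parental cells (95% interval -0.205 to 0.040, adjusted p = 0.67). The KI value was -0.13 without KI DMSO replicate 2 and passed the test (adjusted p = 0.0167). The parental value passed in a fit of the parental groups alone (-0.08, adjusted p = 0.0381).

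The other feedback genes differed in direction. MDM4, the partner of MDM2 that binds p53, had no called change, with log2 values of at most 0.20 in size. PPM1D encodes the phosphatase WIP1, which removes activating phosphates from p53 and its kinases. In DMSO it was lower in KI cells (log2 -0.28, adjusted p = 0.0108), a call that did not pass in a fit of those 2 groups alone (adjusted p = 0.0526) or with effective-length offsets (adjusted p = 0.0511). It rose with BYL719 in KI cells (0.50, adjusted p = 0.000335), and in parental cells its change was 0.27 (adjusted p = 0.102). The parental change passed by DESeq2 (adjusted p = 0.0117) and in a fit of the parental groups alone (adjusted p = 6.35e-06). TRIAP1, a small inhibitor of apoptosis, was higher in KI cells in DMSO (0.40, adjusted p = 0.00169) and fell with BYL719 there (-0.49, adjusted p = 0.000551). FBXO22, a ubiquitin ligase subunit, was higher in KI cells in DMSO (0.29) and under BYL719 (0.17) and fell with BYL719 in KI cells (-0.18, adjusted p = 0.00466). The call under BYL719 was lost without parental BYL719 replicate 1 (adjusted p = 0.0537) or the low-count filter (0.092), and the fall with only the KI groups in the fit (0.0929). Of its exonic bases, 16.2% also belong to other annotated genes, so its counts are uncertain.

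The growth arrest genes included PLK2, with the largest difference between the lines among the members. PLK2 (chromosome 5, 58453982 to 58460086), a kinase of the polo family that p53 induces under stress, was at 21.4, 21.1 and 21.0 CPM in KI BYL719, 31.9, 28.5 and 31.7 CPM in KI DMSO, 12.4, 10.9 and 11.9 CPM in parental BYL719 and 16.7, 15.6 and 15.8 CPM in parental DMSO. All 4 groups were separate. The change of KI over parental was 0.97 on the log2 scale in DMSO (SE 0.0574, adjusted p = 9.34e-08) and 0.88 under BYL719 (SE 0.058, adjusted p = 2.7e-07). It fell with BYL719 in each line, with -0.54 in KI cells (adjusted p = 2.93e-05) and -0.45 in parental cells (adjusted p = 0.00267). The difference of those effects was -0.09 (95% interval -0.265 to 0.089, adjusted p = 0.618). PLK3, a second kinase of that family, was at 14.7, 11.6 and 10.4 CPM in KI BYL719, 14.7, 17.6 and 17.1 CPM in KI DMSO, 9.37, 8.12 and 7.51 CPM in parental BYL719 and 11.7, 10.5 and 10.7 CPM in parental DMSO. It was higher in KI cells in DMSO (0.62, SE 0.125, adjusted p = 0.00229) and under BYL719 (0.58, SE 0.127, adjusted p = 0.00518). Its fall with BYL719 in KI cells (-0.44, adjusted p = 0.0201) did not pass without KI DMSO replicate 2 (-0.39, adjusted p = 0.0797), KI BYL719 replicate 2 (adjusted p = 0.0755) or replicate 3 (0.0888), or with only the KI groups in the fit (0.0864).

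GADD45A (chromosome 1, 67685201 to 67688334), which binds stress kinases and cell cycle proteins after DNA damage, was at 32.4, 28.6 and 28.1 CPM in KI BYL719, 31.6, 40.5 and 32.8 CPM in KI DMSO, 18.7, 18.9 and 18.1 CPM in parental BYL719 and 20.3, 19.9 and 18.3 CPM in parental DMSO. The KI libraries all lay above the parental ones, and the KI groups overlapped each other. KI over parental was 0.87 in DMSO (SE 0.0951, adjusted p = 1.91e-05), 0.74 there without KI DMSO replicate 2, and 0.71 under BYL719 (SE 0.0952, adjusted p = 0.000135). BTG2, which slows the cell cycle by promoting mRNA decay, ran the other way. It was at 33.7, 43.6 and 40.7 CPM in KI BYL719, 33.6, 31.5 and 30.7 CPM in KI DMSO, 51.5, 50.3 and 51.1 CPM in parental BYL719 and 44.3, 47.0 and 47.8 CPM in parental DMSO. It was lower in KI cells in DMSO (-0.51, SE 0.0782, adjusted p = 0.000285) and under BYL719 (-0.35, SE 0.0779, adjusted p = 0.00597). It rose with BYL719 in KI cells (0.30, adjusted p = 0.0139), where KI BYL719 replicate 1 lay just above the highest KI DMSO library. That call was lost without KI DMSO replicate 3 (adjusted p = 0.0619), KI BYL719 replicate 2 (0.0662) or replicate 3 (0.0566), and with only the groups compared (0.0942). CCNG1, a cyclin that acts on MDM2 through a phosphatase, lay between 226.8 and 252.5 CPM in all libraries with no called change.

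**Figure D5:**
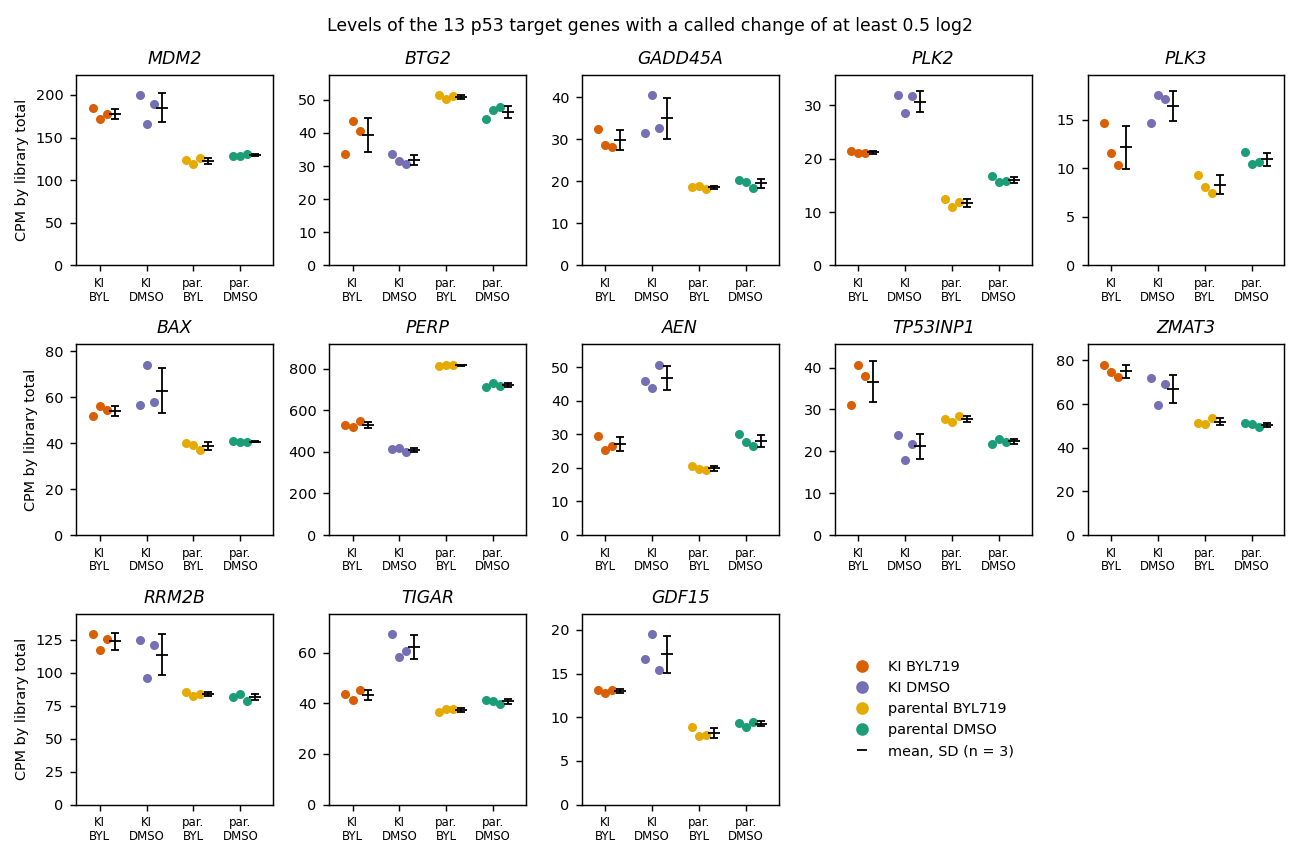
CPM by library total of the 13 members with a called log2 change of at least 0.5 in size (points are libraries, black bars the mean and SD of 3), with the y axis from 0. PERP lies between 398.3 and 547.1 CPM in the KI groups and between 711.0 and 820.9 CPM in the parental groups.

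The death receptors FAS, TNFRSF10A and TNFRSF10B, which start apoptosis from the cell surface, were all higher in KI cells in DMSO. FAS was higher by 0.26 in DMSO and 0.35 under BYL719 (adjusted p = 0.00115 and 0.000155), and TNFRSF10B by 0.37 in each (adjusted p = 0.000747 and 0.000937). TNFRSF10A was higher in DMSO (0.43, adjusted p = 0.00791), and its value under BYL719 was 0.29 (adjusted p = 0.0748). Its fall with BYL719 in KI cells (-0.32, adjusted p = 0.0391) did not pass when parental DMSO replicate 3 was left out (adjusted p = 0.052), nor without parental BYL719 replicate 2 (0.0556), KI DMSO replicate 3 (0.0996) or KI BYL719 replicate 2 (0.152) or 3 (0.112), and with only the KI groups (0.14). Of its exonic bases, 16.6% belong to other genes as well. BAX, which opens the outer mitochondrial membrane, was at 51.9, 56.1 and 54.5 CPM in KI BYL719, 56.7, 74.2 and 57.9 CPM in KI DMSO, 40.1, 39.2 and 36.8 CPM in parental BYL719 and 40.9, 40.6 and 40.4 CPM in parental DMSO. Every KI library was above every parental one, and the 74.2 CPM belong to the library that stood apart. In DMSO the change of KI over parental was 0.66 (SE 0.0932, adjusted p = 0.00016), 0.51 there without that library (adjusted p = 3.56e-08), and 0.51 under BYL719 (SE 0.0933, adjusted p = 0.00145).

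PERP (chromosome 6, 138088505 to 138107419) had the largest decrease in the KI line among the members. It encodes a membrane protein of desmosomes that is a target of p53 and, in stratified epithelia of the mouse, of p63. PERP was at 528.9, 518.1 and 547.1 CPM in KI BYL719, 413.1, 419.1 and 398.3 CPM in KI DMSO, 815.8, 820.9 and 816.9 CPM in parental BYL719 and 711.0, 731.4 and 719.5 CPM in parental DMSO. The 4 groups did not overlap. KI over parental was -0.79 in DMSO (SE 0.0429, adjusted p = 4.39e-08) and -0.60 under BYL719 (SE 0.0428, adjusted p = 5.59e-07). BYL719 raised PERP in KI cells (0.37, adjusted p = 6.07e-05), and its value in parental cells was 0.18 (adjusted p = 0.0666). The parental value passed by DESeq2 (adjusted p = 0.00354) and in a fit of the parental groups alone (adjusted p = 4.46e-05). The difference of the effects was 0.19 (adjusted p = 0.125), and 0.21 (adjusted p = 0.00592) without KI DMSO replicate 2. TP63 moved in the same directions: it was at 57.0, 59.7 and 60.8 CPM in KI BYL719, 30.4, 23.1 and 29.6 CPM in KI DMSO, 104.9, 106.2 and 108.0 CPM in parental BYL719 and 75.9, 78.3 and 82.2 CPM in parental DMSO. Its part in the PERP levels was not tested.

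AEN (chromosome 15, 88604683 to 88632281), a nuclease that cuts DNA and RNA during apoptosis, had the largest fall with BYL719 among the members. It was at 29.5, 25.4 and 26.5 CPM in KI BYL719, 46.1, 43.8 and 50.8 CPM in KI DMSO, 20.6, 19.7 and 19.3 CPM in parental BYL719 and 30.0, 27.7 and 26.5 CPM in parental DMSO. The KI BYL719 libraries thus overlapped those of parental DMSO, and the other groups stood apart from each other. BYL719 changed it by -0.79 in KI cells (SE 0.0687, adjusted p = 6.49e-06) and by -0.50 in parental cells (SE 0.0691, adjusted p = 0.00346), a difference of -0.29 (95% interval -0.50 to -0.077, adjusted p = 0.148). AEN was higher in KI than in parental cells by 0.77 in DMSO (adjusted p = 3.42e-06) and by 0.48 under BYL719 (adjusted p = 0.000235).

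TP53INP1, a stress protein that takes part in apoptosis and autophagy, had the largest rise with BYL719. It was at 31.2, 40.7 and 38.1 CPM in KI BYL719, 24.0, 18.0 and 21.6 CPM in KI DMSO, 27.7, 27.1 and 28.5 CPM in parental BYL719 and 21.7, 23.0 and 22.3 CPM in parental DMSO. The DMSO groups overlapped, and each BYL719 library exceeded all DMSO libraries. BYL719 over DMSO was 0.79 in KI cells (SE 0.0992, adjusted p = 0.000113) and 0.31 in parental cells (SE 0.099, adjusted p = 0.185), with a difference of 0.48 (adjusted p = 0.0982). By DESeq2 the parental change was 0.30 (adjusted p = 0.0495) and the difference 0.46 (adjusted p = 0.021). In a fit of the parental groups alone the parental change was 0.31 (adjusted p = 1.49e-06). KI over parental was -0.05 in DMSO (adjusted p = 0.736) and 0.43 under BYL719 (adjusted p = 0.00703).

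The remaining apoptosis genes were mixed. ZMAT3, an RNA-binding zinc finger protein, was at 78.1, 74.7 and 72.2 CPM in KI BYL719, 72.1, 59.5 and 69.2 CPM in KI DMSO, 51.4, 50.7 and 53.7 CPM in parental BYL719 and 51.2, 50.9 and 49.5 CPM in parental DMSO. All KI libraries lay above all parental libraries. It was higher in KI cells by 0.43 in DMSO (SE 0.0591, adjusted p = 0.00013) and by 0.56 under BYL719 (SE 0.0592, adjusted p = 1.8e-05). ZMAT3 (chromosome 3, 179017223 to 179072513) lies close to PIK3CA (chromosome 3, 179148126 to 179240093), the gene that carries the knock-in. The part of this position in the ZMAT3 levels was not tested. PHLDA3, which competes with AKT for membrane lipids, was lower in KI cells under BYL719 (-0.33, adjusted p = 0.0187) and fell with BYL719 in KI cells (-0.39, adjusted p = 0.0071). The first call was lost without parental BYL719 replicate 1 (adjusted p = 0.0627) or 2 (0.0659) or KI BYL719 replicate 2 (0.0546) or 3 (0.0867), and with effective-length offsets (0.0984). The second was lost with these offsets (0.0993) and with only the KI groups (0.0709), and 19.1% of its exonic bases are shared with another gene. SUSD6, a membrane protein gene, rose with BYL719 in KI cells (0.35, adjusted p = 0.00472; 0.23 and adjusted p = 0.00019 without KI DMSO replicate 2), a call lost with only the KI groups in the fit (adjusted p = 0.0628).

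Of the 4 genes of DNA repair and nucleotide supply, RRM2B differed between the lines. It encodes the p53-induced subunit of ribonucleotide reductase, which supplies deoxynucleotides for repair. RRM2B was at 129.5, 117.1 and 125.4 CPM in KI BYL719, 124.8, 95.8 and 121.0 CPM in KI DMSO, 85.3, 82.6 and 83.9 CPM in parental BYL719 and 82.1, 84.0 and 78.9 CPM in parental DMSO. The KI libraries were all above the parental ones, and the lowest KI value is that of the library that stood apart. It was higher in KI cells by 0.51 in DMSO (SE 0.0756, adjusted p = 0.00025) and by 0.59 under BYL719 (SE 0.0757, adjusted p = 9.01e-05). XPC and DDB2, which recognise damage in nucleotide excision repair, moved little. XPC was higher in KI cells under BYL719 (0.15, adjusted p = 0.0303) and rose with BYL719 there (0.14, adjusted p = 0.0273), and each of these calls was lost under 9 alternatives. Left-out libraries that ended the first were parental BYL719 replicates 1 to 3 and KI BYL719 replicates 2 and 3 (adjusted p = 0.0772 to 0.127). Those that ended the second were parental DMSO replicates 1 and 2, parental BYL719 replicate 1, KI DMSO replicate 3 and KI BYL719 replicates 2 and 3 (adjusted p = 0.0701 to 0.118). Of its exonic bases, 30.4% are shared with other genes. DDB2, for which the window shown above holds 2 matches, rose with BYL719 in KI cells by 0.23 (adjusted p = 0.0377), a call lost under 13 alternatives. They include the loss of any library other than KI DMSO replicate 2 and KI BYL719 replicate 1 (adjusted p = 0.0546 to 0.156) and effective-length offsets (0.03, adjusted p = 0.921). POLH, a polymerase that copies past lesions, had no called change, but without KI DMSO replicate 2 it was higher in KI cells in DMSO (0.27, adjusted p = 4.23e-05).

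Among the metabolic genes, TIGAR (chromosome 12, 4321213 to 4360028) was the member whose BYL719 response edgeR called different between the lines. It encodes a phosphatase that lowers glycolytic flux. TIGAR was at 43.7, 41.4 and 45.2 CPM in KI BYL719, 67.5, 58.4 and 60.7 CPM in KI DMSO, 36.6, 37.7 and 37.7 CPM in parental BYL719 and 41.5, 41.0 and 39.9 CPM in parental DMSO. The KI DMSO libraries stood above all the others. BYL719 over DMSO was -0.52 in KI cells (SE 0.0533, adjusted p = 2.31e-05) and -0.13 in parental cells (SE 0.0534, adjusted p = 0.331), and the difference was -0.39 (SE 0.0754, 95% interval -0.556 to -0.228, adjusted p = 0.0164). Over 18 alternatives this difference ran from -0.68 (effective-length offsets) to -0.36, with adjusted p between 3.89e-05 and 0.0606, and it missed the threshold in 4 of them. These were the fits without parental DMSO replicate 3 (adjusted p = 0.0596), parental BYL719 replicate 2 (0.0606) or 3 (0.0574), or KI BYL719 replicate 2 (0.0521). KI over parental was 0.64 in DMSO (adjusted p = 1.99e-06) and 0.24 under BYL719 (adjusted p = 0.00507), the second of which was lost with effective-length offsets (0.11, adjusted p = 0.292). TIGAR shares 45.6% of its exonic bases with other annotated genes, and the sources used here do not give the strandedness, so its counts are uncertain.

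The other metabolic genes differed less. TP53I3, a quinone oxidoreductase, was higher in KI cells by 0.42 in DMSO and 0.32 under BYL719 (adjusted p = 0.000365 and 0.00355), and the hydrolase CMBL by 0.25 in each (adjusted p = 0.00344 and 0.00421). CMBL lost the DMSO call with effective-length offsets (0.17, adjusted p = 0.0803). FDXR, a mitochondrial reductase that passes electrons to ferredoxin, was higher in KI cells in DMSO by 0.37 (adjusted p = 0.0201), and by 0.19 (adjusted p = 0.0058) without KI DMSO replicate 2. That call was lost when any 1 of the 3 parental DMSO libraries was left out (adjusted p = 0.0534, 0.0605 and 0.0512). It was also lost with only the DMSO groups in the fit (0.36, adjusted p = 0.0936). SPATA18, which acts in mitochondrial quality control, had no called change. It was higher in KI cells in DMSO without KI DMSO replicate 2 (0.17, adjusted p = 0.0191).

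GDF15 (chromosome 19, 18386158 to 18389176), a secreted cytokine of the TGF-beta family that p53 and other stress factors induce, was at 13.1, 12.8 and 13.1 CPM in KI BYL719, 16.7, 19.5 and 15.4 CPM in KI DMSO, 8.84, 7.80 and 8.0 CPM in parental BYL719 and 9.35, 8.90 and 9.49 CPM in parental DMSO. The KI libraries lay above the parental ones and the KI DMSO libraries above those with BYL719. KI over parental was 0.93 in DMSO (SE 0.0887, adjusted p = 6.29e-06), 0.81 there without KI DMSO replicate 2, and 0.69 under BYL719 (SE 0.0892, adjusted p = 9.71e-05). It fell with BYL719 in KI cells (-0.41, SE 0.0876, adjusted p = 0.00412), and in parental cells the value was -0.18 (adjusted p = 0.486). TP53I11 had no called change. It and CCNG1, MDM4, POLH and SPATA18 are the 5 members that passed the test in no comparison.

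Set against each other per length, the members spanned a wide range of levels. By TPM (transcript abundance that the authors scaled by length), PERP was the most abundant in parental DMSO at a mean of 248.2 TPM, followed by TP53I3 at 173.8, CCNG1 at 165.3 and BAX at 100.4 TPM. In KI DMSO the order began with TP53I3 at 226.5, CCNG1 at 161.7, BAX at 140.3 and PERP at 136.8 TPM. MDM4 was the lowest in both groups, at 4.91 TPM in KI DMSO and 5.35 TPM in parental DMSO.

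Of 18 genes of the p53 family and its upstream regulators, 2 were higher and 5 lower in KI cells in DMSO (11.1% and 27.8%, backgrounds 17.0% and 17.2%). The 7 called genes are 38.9% of the list, near the 34.2% of all genes. Under BYL719, 1 was higher and 3 were lower (5.56% and 16.7%, backgrounds 11.4% and 10.9%). TP63 was lower in KI cells in DMSO (-1.48, adjusted p = 3.5e-08) and under BYL719 (-0.82, adjusted p = 6.38e-06), and rose with BYL719 in KI cells (1.09, adjusted p = 1.48e-06) and in parental cells (0.43, adjusted p = 0.0168). TP73 and PPP1R13L, an inhibitor of p53 family proteins, were also lower in KI cells in DMSO, by -0.53 and -0.59. With BYL719 in KI cells 6 of the 18 rose and 2 fell (33.3% and 11.1%, backgrounds 15.1% and 13.2%), and in parental cells TP63 alone was called (5.56%, background 0.844%). The rises include those of the kinase ATM and the acetyltransferases EP300 and CREBBP, which were low in the library that stood apart: KI DMSO replicates 1, 2 and 3 had 65.7, 40.9 and 61.9 CPM of ATM, 30.4, 17.0 and 30.7 CPM of EP300 and 109.8, 64.3 and 97.4 CPM of CREBBP. Their changes with BYL719 in KI cells were 0.44, 0.58 and 0.62, and 0.25, 0.34 and 0.42 without replicate 2 (adjusted p = 0.00668, 9.54e-06 and 4.71e-05). Leaving that library out moved the change of KI over parental in DMSO to -0.28 for CREBBP, against -0.47 with it, and to 0.14 for CHEK2, a kinase upstream of p53, against 0.24. PPP1R13L, which rose with BYL719 in KI cells (0.16, adjusted p = 0.0453), lost that call (0.11, adjusted p = 0.0878). Without KI DMSO replicate 2 the counts higher and lower between the lines were 5 and 6 in DMSO (27.8% and 33.3%, backgrounds 19.6% and 19.3%). Under BYL719 they were 4 and 5 (22.2% and 27.8%, backgrounds 17.4% and 17.2%). With BYL719 they were 6 and 5 in KI cells (33.3% and 27.8%, backgrounds 15.5% and 17.0%). In parental cells they were 1 and 0 (5.56% and 0%, backgrounds 4.21% and 4.96%). For the difference of effects they were 5 and 3 (27.8% and 16.7%, backgrounds 4.7% and 4.01%), against 1 and 0 with that library.

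Of 16 further known p53 targets, 5 were higher and 1 lower in KI cells in DMSO (31.2% and 6.25%, backgrounds 17.0% and 17.2%). Under BYL719, 7 were higher and 0 lower (43.8% and 0%, backgrounds 11.4% and 10.9%). There 8 had an unadjusted p under 0.05, a count for which no share of all genes is given. The cell cycle inhibitor CDKN1A was at 269.4 to 293.9 CPM in KI BYL719, 382.6 to 411.4 CPM in KI DMSO, 203.9 to 209.1 CPM in parental BYL719 and 213.5 to 222.6 CPM in parental DMSO. CDKN1A was higher in KI cells by 0.90 in DMSO (adjusted p = 3.87e-08) and by 0.48 under BYL719 (adjusted p = 1.04e-05). BYL719 changed it by -0.50 in KI cells and -0.08 in parental cells. PMAIP1, which encodes the apoptosis activator NOXA, was higher in KI cells in DMSO (0.86, adjusted p = 8.46e-07) and fell with BYL719 there (-0.32, adjusted p = 0.00298). The decoy receptor gene TNFRSF10D was higher by 0.80 in DMSO and 0.75 under BYL719. EDA2R was higher by 0.47 in DMSO (adjusted p = 0.00779) and by 0.98 under BYL719 (adjusted p = 4.36e-05). The second was the largest difference between the lines under BYL719 in this list. BBC3, which encodes the apoptosis activator PUMA, did not differ detectably between the lines in DMSO (0.11, 95% interval -0.091 to 0.309) and rose with BYL719 in KI cells (0.36, adjusted p = 0.0109). With BYL719 in KI cells 5 of these 16 genes rose and 3 fell (31.2% and 18.8%, backgrounds 15.1% and 13.2%). SFN fell most, by -0.70 (adjusted p = 0.000495), and by -0.53 without KI DMSO replicate 2 (adjusted p = 2.84e-06). In parental cells edgeR called 0 of the 16 (background 1.43%), with 2 at an unadjusted p under 0.05, again with no share of all genes given. Leaving out KI DMSO replicate 2 gave 6 higher and 1 lower between the lines in DMSO (37.5% and 6.25%, backgrounds 19.6% and 19.3%). Under BYL719 it gave 8 and 1 (50% and 6.25%, backgrounds 17.4% and 17.2%). For BYL719 in KI cells it gave 5 and 4 (31.2% and 25%, backgrounds 15.5% and 17.0%). In parental cells the counts were 2 and 2 (12.5% each, backgrounds 4.21% and 4.96%). For the difference of effects they were 2 and 2 (12.5% each, backgrounds 4.7% and 4.01%), against 1 and 1 with that library. APAF1, the gene that was lower in KI cells in DMSO (-0.33, adjusted p = 0.00951), has a product that activates caspases. Its value there was -0.21 without KI DMSO replicate 2 (adjusted p = 0.000601).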

How the data were processed

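RNA of 12 MCF10A libraries was sequenced as paired reads of 150 nt, per the labels' protocols. The submitters' processing notes name Trim Galore 0.6.1, cutadapt, Salmon 1.2.1, DESeq2 1.28.1 and GRCh38. The deposited tables hold, per transcript, expected counts (estimated read pairs) and TPM, both as the authors deposited them, with effective transcript lengths. The sources used here do not give the strandedness or how RNA was selected.

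Expected counts were summed per gene identifier and rounded. Levels are CPM by library total. All 12 libraries were fitted together in edgeR 4.0.16 (R 4.3.3; robust quasi-likelihood, filterByExpr, TMM, 8 residual degrees of freedom), two-sided, with Benjamini-Hochberg adjustment over 21079 genes, and adjusted p values are from this fit unless DESeq2 1.42.0, run as an alternative, is named. SE is the log2 change over the root of its F value. Libraries of a group differed beyond sampling noise (chi-square over its degrees of freedom 4.31 to 150.1 between pairs). The fit was tested on simulated counts. Reads shared by transcripts were divided by Salmon's estimate.

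The members and the lists of other pathway genes were chosen with earlier results of these data known, so counts over them are descriptions. All 31 members are named. Values in every library are printed for members called in at least 1 of the 5 comparisons with a log2 change of at least 0.5 in size. Alternatives were another test, 2 other scalings, no low-count filter, effective-length offsets, fewer groups in the fit, a replicate block and each library left out. Exon overlap and promoters came from annotations of GRCh38; gene positions and promoter sequences are from RefSeq (GRCh38.p14), and 8 members had no promoter entry.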

Additional observations from a re-analysis of the deposited data

Results flagged for a closer look

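For 4 genes the effect of BYL719 differed between the lines by the test of that difference (edgeR, all 12 libraries), given as the log2 effect in KI cells minus that in parental cells. It was -0.39 for TIGAR (adjusted p = 0.0164), with -0.52 in KI cells and -0.13 in parental cells. It was 0.67 for TP63 (adjusted p = 0.0072), which rose in each line, by 1.09 in KI cells and by 0.43 in parental cells. For CDKN1A it was -0.42 (adjusted p = 0.00683). For SESN1, a sestrin gene, it was 0.47 (adjusted p = 0.0345), with BYL719 effects of 0.58 in KI cells and 0.11 in parental cells. Over 18 alternatives TP63 (0.55 to 0.72) and CDKN1A (-0.49 to -0.40) passed the threshold in each, while TIGAR missed it in 4 and SESN1 (0.39 to 0.52) in 10. Without KI DMSO replicate 2 more genes were called for this difference. The counts were then 8 of 18 upstream genes (44.4%) and 4 of 16 further targets (25%). Of all genes, 4.7% were then called higher and 4.01% lower. Groups of 3 libraries are too small for the check on single outlying samples.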

How the results depend on the processing

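No called member value changed sign under any of the 19 alternatives run. Calls held in every alternative for 18 of 21 members between the lines in DMSO, 16 of 20 under BYL719, 8 of 16 for BYL719 in KI cells and 2 of 2 in parental cells, and for 0 of 1 for the difference of the BYL719 effects. Of 95 uncalled member comparisons, 31 changed sign somewhere. All 31 members stayed detected at 0.5 and 2 CPM. With only the groups compared in the fit, 8 members and 2610 genes were called for BYL719 in KI cells, and 13 members and 3484 genes in parental cells, against 16 and 5964 and 2 and 302. Besides PLK2 and AEN, those in parental cells were PPM1D, BTG2, PERP, TP53INP1, SUSD6 and TP53I11, which rose. MDM2, TRIAP1, PLK3, TIGAR and GDF15 fell there. DESeq2 called 5 members and 891 genes for BYL719 in parental cells, and 4 members and 1429 genes for the difference of effects, against 1 and 606. Effective-length offsets gave 133 and 272 genes in these 2 comparisons. The cause of these shifts was not tested.

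With 1 library left out at a time, members called ranged from 20 to 23 between the lines in DMSO, 17 to 21 under BYL719, 11 to 20 for BYL719 in KI cells, 2 to 7 in parental cells and 0 to 4 for the difference of effects. Genes called ranged from 3562 to 7442 between the lines under BYL719, 73 to 1973 for BYL719 in parental cells and 239 to 1874 for the difference. The upper ends of those 3 ranges, and the 7 and 4 members, came without KI DMSO replicate 2. Without parental DMSO replicates 1, 2 and 3 the genes called for BYL719 in parental cells were 73, 98 and 134, and without parental BYL719 replicates 1, 2 and 3 they were 102, 84 and 78. For the difference they were 346, 273 and 243 and then 239, 254 and 295, and 301 and 287 without KI BYL719 replicates 2 and 3. Members called for the difference were 0 without parental DMSO replicate 3, parental BYL719 replicate 2 or 3, or KI BYL719 replicate 2, 2 without KI DMSO replicate 1 and 3 without KI BYL719 replicate 1.

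Some member values that missed the threshold passed it when 1 library was left out, and a few of them also under another test or scaling. Without KI DMSO replicate 2 these were MDM2 in KI cells (-0.13), POLH and SPATA18 between the lines in DMSO (0.27 and 0.17), PERP for the difference of effects (0.21), TNFRSF10B and FDXR, lower with BYL719 in KI cells (-0.13 and -0.14), PPM1D, PERP, TP53INP1 and SUSD6, higher with BYL719 in parental cells (0.27, 0.17, 0.30 and 0.17), TRIAP1, lower there (-0.16), POLH, higher in KI cells under BYL719 (0.21), and TRIAP1 and PHLDA3 for the difference of effects (-0.23 and -0.28). Without KI DMSO replicate 1, GADD45A, BAX, FDXR and TP53I3 fell with BYL719 in KI cells (-0.35, -0.33, -0.43 and -0.22), ZMAT3 rose (0.18), PPM1D rose in parental cells (0.27) and TP53INP1 was called for the difference (0.55). GADD45A, BAX and FDXR fell in KI cells without KI DMSO replicate 3 (-0.33, -0.32 and -0.41). Without KI BYL719 replicate 1, MDM4 rose (0.24) and GADD45A fell (-0.35) in KI cells, and AEN (-0.38) and TP53INP1 (0.55) were called for the difference. Without KI BYL719 replicate 2, TNFRSF10A was higher in KI cells under BYL719 (0.39).

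Replicate numbers are shared between groups. The deviations of same-numbered libraries had correlations of -0.0724 to 0.0795 over 18 pairs. Differently numbered libraries were not compared in this way, so whether same-numbered libraries share a batch cannot be told. With the replicate block 21, 19, 17, 2 and 1 members were called in the 5 comparisons in the order above, and 7104, 4510, 5818, 213 and 443 genes.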

Other observations

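The members have 288 annotated transcripts, and for 24 members 1 transcript carried over 50% of the gene's TPM. With a difference in share between groups of at least 10 percentage points and no overlap as the rule, SPATA18-201 was the only transcript found, and it rests on KI DMSO replicate 2. Its share was 48.4%, 49.0% and 38.2% in KI BYL719, against 51.5%, 66.0% and 52.3% in KI DMSO. The means were 45.2% in KI BYL719 and 56.6% in KI DMSO, or 51.9% in KI DMSO without replicate 2, which leaves a difference of -6.68 percentage points, short of the 10 of the rule. DDB2-209, a transcript with a retained intron, took 47.5% of DDB2 in KI DMSO replicate 2, the library that stood apart, and between 15.4% and 24.5% in the other libraries. Salmon divides shared reads between transcripts, so these shares are estimates with no test.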
